A study of Mus musculus with 17 samples.

Results

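Sperm chromatin digested with micrococcal nuclease (MNase) was spun, and the DNA that stayed in solution (supernatant) was set against the DNA that sedimented (pellet) at 4 matched enzyme doses. The libraries were chosen by their titles, supernatant and pellet at 1, 5, 20 and 100 units, which gave 8 of the 17 samples of the series, 4 per fraction. For the pellet at 5 and 20 units the description states other units, so these pairs are matched by title alone. All 8 came from sperm of 10-week-old mice of the strain C57/B6J, taken from the cauda epididymis and the vas deferens by swim-up and crosslinked with 1% formaldehyde for 15 min. Per the labels, nuclei were made permeable, treated with MNase at 37 °C for 5 min and spun at 5000 g. No immunoprecipitation was made. Each fraction and dose had 1 library, so there were no biological replicates. The sources used here do not give the number of mice behind a library, the number of sperm per digest, or whether both fractions of a dose came from 1 digest.

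MNase is an endonuclease that degrades exposed DNA and spares DNA wrapped in nucleosomes or covered by other bound factors. During spermiogenesis most histones are replaced by protamines, small basic proteins that condense the sperm genome, and some histones stay, in part at promoters rich in CpG dinucleotides. The spin asks which digested fragments are soluble and which remain with the dense chromatin. Promoters rich in CpG belong mostly to housekeeping and developmental genes, and CpG-poor promoters mostly to genes of single tissues, such as the odour receptors.

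The tables hold read counts in 50 bp bins over 5000 bp to each side of a start site, for 16482 start sites used here. The authors classed them as HCP (10576), ICP (3073) and LCP (2833), taken here to mean promoters of high, intermediate and low CpG content. The sequences of 4 promoters show what the 2 outer classes look like. They are the 250 bases upstream of the start site, written 5′ to 3′, with every CG in capitals. In each of the HCP and LCP classes they belong to the gene with the smallest p on either side of the promoter test given below, among genes with 1 window in the RefSeq table. Cox11 encodes a copper chaperone for cytochrome c oxidase and Inpp1 an inositol phosphate phosphatase, and both have HCP promoters. Slfn2 is a Schlafen gene of immune cells and Olfr159 an odour receptor gene, and both have LCP promoters.
Cox11: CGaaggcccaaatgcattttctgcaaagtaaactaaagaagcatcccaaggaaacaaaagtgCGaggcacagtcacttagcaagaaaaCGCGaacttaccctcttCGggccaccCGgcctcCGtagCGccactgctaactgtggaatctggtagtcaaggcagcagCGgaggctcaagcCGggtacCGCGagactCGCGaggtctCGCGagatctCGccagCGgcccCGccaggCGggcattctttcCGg
Inpp1: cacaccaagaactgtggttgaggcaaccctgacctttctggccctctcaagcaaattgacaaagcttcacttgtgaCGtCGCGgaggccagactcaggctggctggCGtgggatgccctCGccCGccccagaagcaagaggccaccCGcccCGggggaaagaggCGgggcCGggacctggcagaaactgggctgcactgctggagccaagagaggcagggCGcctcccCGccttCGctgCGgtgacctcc
Slfn2: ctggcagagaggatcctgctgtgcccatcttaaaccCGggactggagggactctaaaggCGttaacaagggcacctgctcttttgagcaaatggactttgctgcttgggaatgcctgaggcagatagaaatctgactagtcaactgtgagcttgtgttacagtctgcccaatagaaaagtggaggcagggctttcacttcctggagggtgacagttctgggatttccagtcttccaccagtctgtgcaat
Olfr159: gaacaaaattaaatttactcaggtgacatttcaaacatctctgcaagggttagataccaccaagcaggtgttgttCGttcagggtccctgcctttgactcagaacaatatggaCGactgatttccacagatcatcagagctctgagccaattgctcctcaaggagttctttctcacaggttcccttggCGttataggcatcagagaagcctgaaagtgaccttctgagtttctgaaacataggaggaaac
Cox11 holds 21 CG and Inpp1 14, against 3 in Olfr159 and 2 in Slfn2. The windows were matched by symbol to the RefSeq table of GRCm38.p6, at chr11:90637934-90638183 on the + strand, chr1:52817689-52817938 on the - strand, chr11:83064862-83065111 on the + strand and chr4:43771010-43771259 on the - strand. The deposited start sites are in mm9, so a window may belong to another start site of the same gene. The motif searched was CG, which reads the same on both strands. Of 27025 such windows 91.7% hold at least 1, with a median of 6.

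The supernatant tables summed to 149758, 118897, 176044 and 226253 counts at 1, 5, 20 and 100 units, against 37961, 83248, 95553 and 157871 in the pellet tables. A count is a read touching a bin, so an isolated read pair adds several. Divided by the mean of 3.09 to 3.87 counts per isolated stretch, the depth within 1000 bp of the start site was 0.357 to 0.901 stretches per promoter in the supernatant and 0.138 to 0.729 in the pellet. At 1 unit, 944 promoters had a count in both fractions, which is 13.7% of those with a supernatant count and 43.9% of those with a pellet count. At 100 units 5755 did, which is 56.2% and 64.8%. Of all promoters, 58.3% had no supernatant count and 87.0% no pellet count at 1 unit, against 37.9% and 46.1% at 100 units. The overlaps lie near what these shares alone would give. Because of the low depth, results were read on pooled promoters. Intervals are 95% and cover counting error only, since each fraction and dose had 1 library. Reads carry no molecular identifiers, so copies of a fragment count as separate, which can make the intervals too narrow.

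The fractions differed in how long a stretch the isolated read pairs covered, and the sign depended on the dose. At 1 unit the mean length was 44.5 bp in the supernatant and 45.7 bp in the pellet, a difference of -1.25 bp (-2.00 to -0.50). At 5 units it was 139.5 bp in the supernatant and 134.4 bp in the pellet, a difference of 5.03 bp (4.14 to 5.93). The pairs of the supernatant were shorter at 20 units (131.6 bp against 139.1 bp in the pellet, a difference of -7.52 bp, -8.29 to -6.75) and at 100 units (130.99 bp against 141.1 bp in the pellet, -10.1 bp, -10.8 to -9.42). The 1-unit pair stands apart from the other 3 doses. The sources used here do not give the size range that was sequenced or kept, and the lengths are estimates from 50 bp bins. Pairs counted more than once were fewer in the supernatant at every dose (15.2, 29.4, 19.5 and 17.8% of pairs with a gap between the reads, against 16.8, 32.9, 24.5 and 22.3% in the pellet), but the intervals overlap at 1 unit. At 1 unit such a gap was seen in 3.93% of isolated stretches of the supernatant and 1.79% of the pellet. At the other doses it was seen in 70.6% to 81.0%, so the 1-unit values rest on few pairs. The part of pairs counted more than once in the results below was not tested beyond the values with each bin capped at 1 count.

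CpG-rich promoters held a smaller share of the supernatant than of the pellet at all 4 doses, and both other classes a larger one. Within 1000 bp of the start site, HCP promoters took 58.7, 61.7, 64.2 and 67.9% of the supernatant counts at 1, 5, 20 and 100 units, against 60.8, 64.1, 66.9 and 72.1% of the pellet counts. The supernatant was lower in every pair, by a log2 ratio of -0.051, -0.055, -0.059 and -0.086. The mean was -0.063 ± 0.016 (SD over 4 doses). The interval lay below 0 at 20 units (-0.12 to -0.0010) and at 100 units (-0.13 to -0.044) and held 0 at the lower doses.

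LCP promoters showed the mirror image, with the widest gap at the highest dose. They took 21.0, 19.2, 17 and 15.5% of the supernatant at 1, 5, 20 and 100 units, against 19.8, 17.5, 15.4 and 12.8% of the pellet. The log2 ratios of supernatant to pellet were 0.085, 0.14, 0.14 and 0.28, with intervals above 0 from 5 units on, and the mean was 0.16 ± 0.084 (SD over 4 doses). ICP promoters took 20.3, 19.05, 18.8 and 16.6% of the supernatant, against 19.4, 18.4, 17.7 and 15.2% of the pellet. Their mean log2 ratio was 0.081 ± 0.034 (SD over 4 doses), with an interval above 0 at 100 units alone (0.040 to 0.22).

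**Figure D1:**
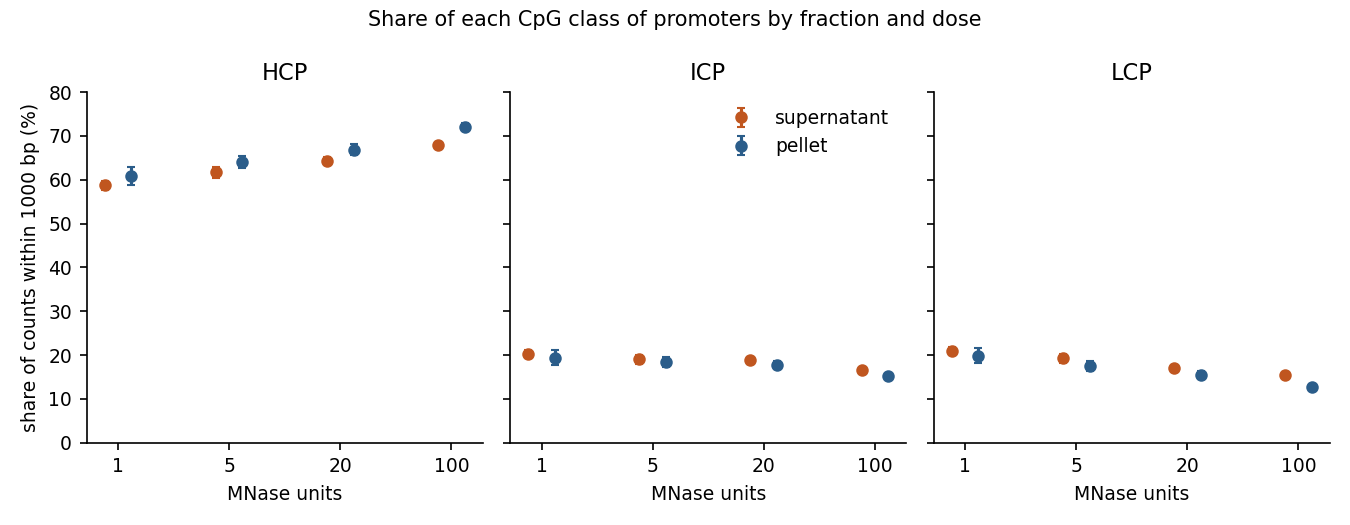
Share of the counts within 1000 bp of start sites (percent) that fell on HCP, ICP and LCP promoters, by MNase units. Points are single libraries with exact binomial intervals, and at each dose the supernatant lies below the pellet for HCP (67.9% against 72.1% at 100 units) and above it for ICP and LCP.

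Every class thus had the same direction in 4 of 4 doses. With 1 library per fraction and dose, swapping the fractions within doses allows 16 sign patterns, and each class reached the two-sided exact permutation p of 0.125, the smallest possible (adjusted p = 0.125 over 3 classes), so this design cannot reach the threshold of 0.05. The 3 shares of a library add to the whole and are not independent. The slope of the log2 ratio on log2 units was -0.0049 per doubling for HCP and 0.027 for LCP, each with an exact permutation p of 0.083 from the 24 orderings (adjusted p = 0.125). A p of 0.083 is the smallest that this two-sided test can give at these doses. It cannot reach 0.05, so it cannot decide whether the gap changes with dose.

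The class difference lay close to the start site. Within 200 bp, HCP promoters took 56.05, 60.5, 61.4 and 68.4% of the supernatant at 1, 5, 20 and 100 units, against 63.2, 65.2, 68.2 and 73.6% of the pellet, and the mean log2 ratio was -0.13 ± 0.033 (SD over 4 doses). LCP promoters took 22.4, 18.5, 18.3 and 14.9% of the supernatant there, against 17.9, 16.98, 15.1 and 11.6% of the pellet, a mean of 0.27 ± 0.10. From 200 to 500 bp the HCP mean was -0.092 ± 0.052, and from 500 to 1000 bp it was -0.015 ± 0.045 with mixed signs. From 1000 to 2000 bp it was -0.029 ± 0.020, and from 2000 to 3000 bp -0.0040 ± 0.015.

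Farther out the class means changed sign, mostly within counting error. Beyond 3000 bp every HCP interval held 0, and the LCP interval left out 0 at 20 units alone (-0.18 to -0.010). From 3000 to 5000 bp the HCP mean was 0.019 ± 0.015 and the LCP mean -0.061 ± 0.025 (SD over 4 doses), with the LCP share lower in the supernatant at all 4 doses (17.9, 16.8, 15.9 and 15.6%, against 18.4, 17.6, 16.97 and 16.2% in the pellet). Over the whole span the HCP ratio was therefore -0.013 ± 0.013 and the LCP ratio 0.024 ± 0.040, above 0 at 2 of 4 doses. The size of the class difference depends on the window chosen, and with it the LCP direction.

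**Figure D2:**
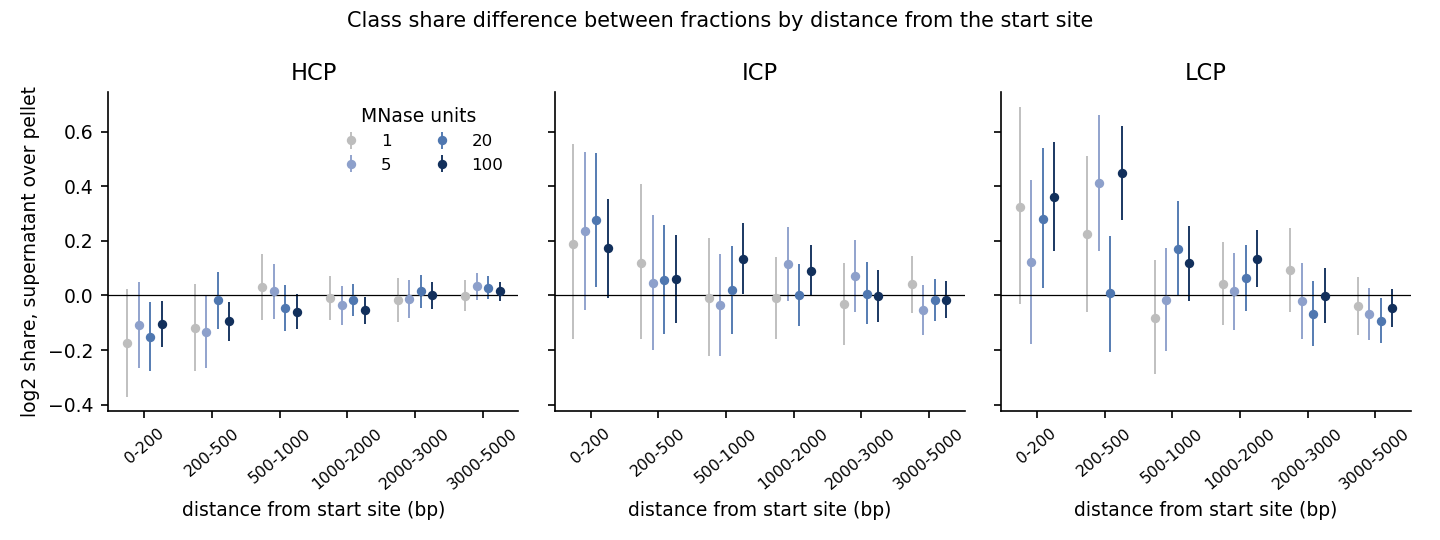
Log2 ratio of the class share, supernatant over pellet, in bands of distance from the start site (bp), for HCP, ICP and LCP promoters. Points are the 4 doses, light to dark from 1 to 100 units, with exact intervals for counting error, and HCP lies below 0 and LCP above 0 within 500 bp, close to 0 beyond 2000 bp.

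The same contrast appeared along the HCP promoters themselves. The start-site ratio sets the mean count in the last 200 bp before the start site against that of the flanks (between 1000 and 2000 bp away on either side), so a value of 1 means no more than the surroundings. Upstream of HCP start sites it was 0.848, 0.917, 0.838 and 1.13 in the supernatant at 1, 5, 20 and 100 units, against 0.968, 1.09, 1.21 and 1.68 in the pellet. From 5 to 20 units the supernatant was below its flanks and the pellet above them. The log2 ratios of supernatant to pellet were -0.19, -0.24, -0.53 and -0.57, with intervals below 0 at 5, 20 and 100 units, and the mean was -0.38 ± 0.19 (SD over 4 doses).

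Downstream, over the 300 bp that follow the start site and usually hold the first nucleosomes of a gene, the HCP ratio was 0.630, 0.926, 1.06 and 1.69 in the supernatant at 1, 5, 20 and 100 units, against 0.825, 1.11, 1.26 and 2.17 in the pellet. All 4 log2 ratios were negative (-0.39, -0.27, -0.24 and -0.37) with intervals below 0, and the mean was -0.32 ± 0.072 (SD over 4 doses). The upstream gap had a slope of -0.065 per doubling of units (exact p = 0.083 over 24 orderings, again the smallest possible, adjusted p = 0.5 over 6 measures). The downstream gap had one of 0.0038 (exact p = 0.83, adjusted p = 0.83). Both stretches had the smallest two-sided exact permutation p that swapping allows, 0.125 (adjusted p = 0.375 over 6 measures). These ratios and the class shares rest on the same reads near HCP start sites and are not separate evidence.

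**Figure D3:**
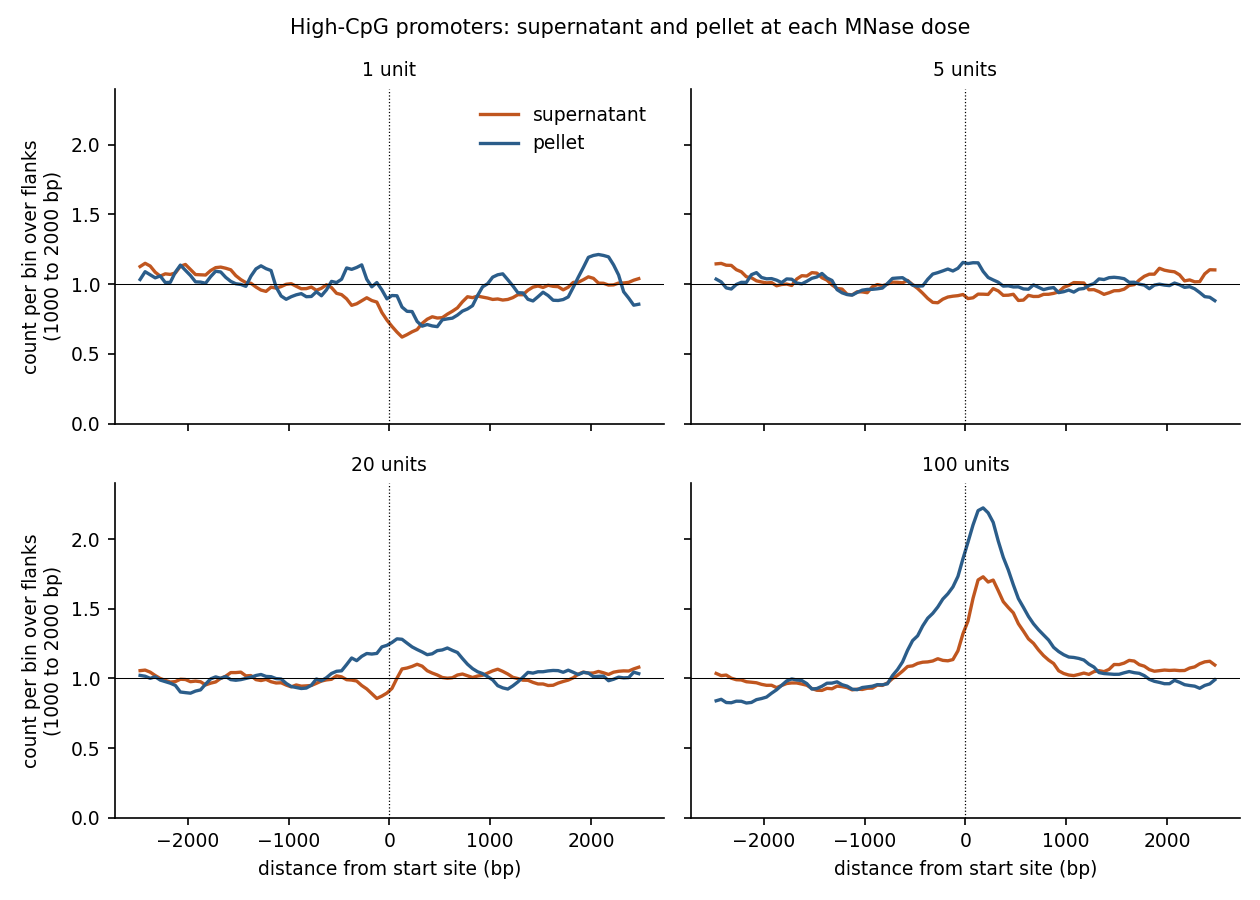
Mean count per bin over HCP start sites, divided by the mean of the flanks at 1000 to 2000 bp and smoothed, against distance from the start site (bp), for supernatant and pellet at each dose. The supernatant dips below the pellet around the start site at every dose, and at 100 units both peak between 100 and 200 bp downstream, at 1.73 in the supernatant and 2.22 in the pellet.

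At 100 units the smoothed HCP profile peaked in the same bin in both fractions, between 100 and 200 bp downstream, with 1.73 times the flanks in the supernatant and 2.22 times in the pellet. At 20 units the supernatant had its lowest value between 100 and 200 bp upstream (0.856) and its highest 275 bp downstream (1.10), whereas the pellet was highest 75 bp downstream (1.28). At 1 unit the supernatant was lowest between 100 and 200 bp downstream (0.620), and the pellet 475 bp downstream (0.695). The supernatant lay below the pellet in all 4 pairs from 400 bp upstream to 200 bp downstream of the HCP start site. Over 400 to 200 bp upstream the mean log2 ratio was -0.35 ± 0.074, and over the first 200 bp downstream -0.37 ± 0.076 (SD over 4 doses). From 1000 to 600 bp upstream it was -0.012 ± 0.014. Over 200 to 400 bp downstream it was -0.12 ± 0.14, below 0 at 3 of 4 doses, and the gap was largest at 100 units, where its interval lay below 0 (-0.43 to -0.19).

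The balance of the 2 sides of the HCP start site also differed at the higher doses. The downstream ratio divided by the upstream ratio was 0.743, 1.01, 1.27 and 1.49 in the supernatant at 1, 5, 20 and 100 units, against 0.852, 1.03, 1.04 and 1.29 in the pellet. The supernatant leaned downstream more than the pellet at 20 units (log2 difference 0.29, 0.054 to 0.52) and at 100 units (0.21, 0.048 to 0.36), and at the lower doses the intervals held 0.

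**Figure D4:**
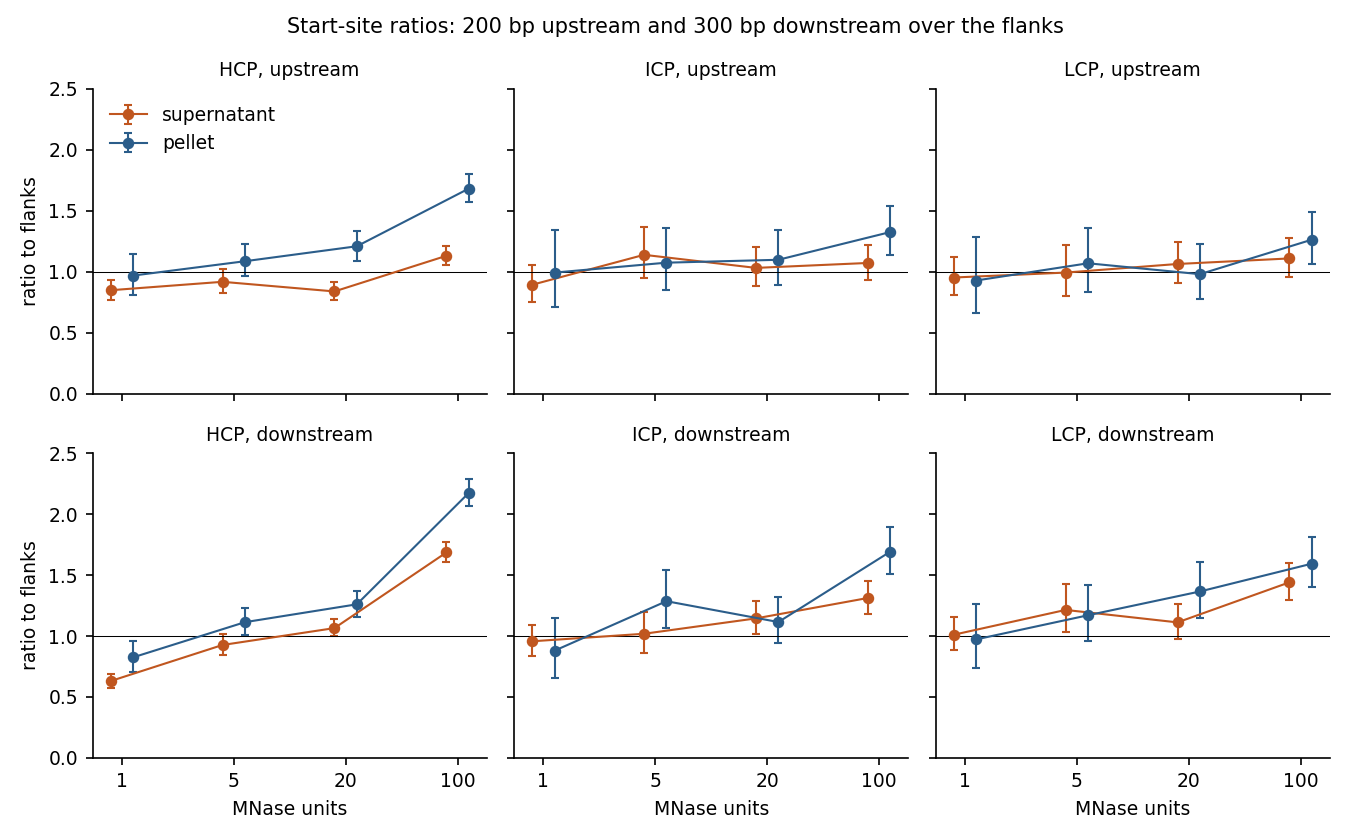
Mean count in the 200 bp before (top) and the 300 bp after (bottom) the start site, relative to the flanks, by MNase units, for the 3 CpG classes. Points are single libraries with intervals for counting error, and the supernatant lies below the pellet at all 4 doses for HCP alone in both stretches.

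The upstream and downstream ratios of the other classes had mixed signs. The ICP upstream ratio was 0.893, 1.14, 1.03 and 1.07 in the supernatant, against 0.993, 1.07, 1.10 and 1.33 in the pellet, and the mean log2 ratio was -0.12 ± 0.16 (SD over 4 doses), with an interval below 0 at 100 units (-0.59 to -0.021). ICP downstream had -0.14 ± 0.25, also with an interval below 0 at 100 units (1.31 in the supernatant against 1.69 in the pellet). Farther downstream the ICP values were below 0 at 4 of 4 doses, with means of -0.21 ± 0.16 over 200 to 400 bp and -0.16 ± 0.056 over 400 to 600 bp. LCP promoters had 0.952, 0.993, 1.06 and 1.11 upstream in the supernatant, against 0.928, 1.07, 0.980 and 1.26 in the pellet, a mean of -0.035 ± 0.14, and -0.083 ± 0.17 downstream. Of these 8 LCP values upstream and downstream, 0 had an interval that left out 0. Elsewhere LCP intervals left out 0 over 400 to 200 bp upstream at 5 units (0.031 to 0.99). They also did so over 200 to 400 bp downstream at 20 units (-0.78 to -0.062). Over 400 to 600 bp downstream the LCP mean was -0.13 ± 0.13, below 0 at 4 of 4 doses. Whether the HCP gap differs from that of the other classes was not tested.

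Gene lists were compared as the share of each fraction's counts that fell within 1000 bp of the list's start sites. Of 22 lists, 21 had members in the tables and microRNA genes had none. Read against counting error, 1 list had an interval above 0 and 1 an interval below 0, each at a single dose. The adjusted exact p ran from 0.656 upwards over the 21 lists.

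The largest family, the 847 olfactory receptors (odour receptors of the nose, mostly with CpG-poor promoters), had mixed signs within 1000 bp. They took 6.66, 5.85, 4.09 and 3.14% of the supernatant at 1, 5, 20 and 100 units, against 6.97, 5.41, 4.73 and 3.08% of the pellet. The log2 ratios were small (-0.066, 0.11, -0.21 and 0.028) and all 4 intervals held 0. Within 200 bp of the start site the mean was 0.17 ± 0.12 (SD over 4 doses), above 0 at 4 of 4 doses. Set against what the list's own mix of CpG classes gave, the mean was -0.18 ± 0.14 (SD over 4 doses), below 0 at 4 of 4 doses. The 65 vomeronasal receptors, which detect pheromones, took 0.599, 0.459, 0.327 and 0.203% of the supernatant, against 0.413, 0.386, 0.275 and 0.149% of the pellet. They were higher in the supernatant in each pair (mean log2 ratio 0.37 ± 0.14, exact permutation p = 0.125, adjusted p = 0.656), but each interval held 0, and over the whole span the mean was -0.074.

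Among developmental genes, the 69 signalling ligands (Wnt, Bmp, Fgf and related growth factors) took 0.239, 0.576, 0.541 and 0.561% of the supernatant, against 0.455, 0.346, 0.294 and 0.450% of the pellet. Their log2 ratio was -0.93 at 1 unit and 0.74, 0.88 and 0.32 above it, with an interval above 0 at 20 units (from 0.079). The mean was 0.64 without the 1-unit pair and 0.041 without the 20-unit pair. The 170 developmental regulators outside Hox, transcription factors such as the Pax, Gata and Sox genes, had -0.074 ± 0.28, and the 40 Hox genes, which pattern the body axis, 0.090 ± 0.33 (mean log2 ratio ± SD over 4 doses). The 20 pluripotency genes were above 0 at 4 of 4 doses (mean 0.98 ± 0.86), where the 1-unit value of 2.24 rests on 2 pellet counts, and each interval held 0. Without the 1-unit pair the mean was 0.57.

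Replication-dependent histone genes, which supply histones in S phase, had the widest spread. Their 37 promoters took 0.127, 0.194, 0.185 and 0.230% of the supernatant at 1, 5, 20 and 100 units, against 0.598, 0.352, 0.0736 and 0.301% of the pellet. The log2 ratio was -2.23 at 1 unit, with an interval below 0, and 1.33 at 20 units, so the doses disagree. The mean was 0.027 without the 1-unit pair and -1.16 without the 20-unit pair. Proteasome subunits (-0.37 ± 0.21 over 37 promoters) and imprinted genes (-0.26 ± 0.27 over 35) were below 0 at 4 of 4 doses, both with an exact permutation p of 0.125 and an adjusted p of 0.656. Each of their intervals held 0. Without the most covered 1% of promoters the proteasome mean was 0.10, and over the whole span that of imprinted genes was 0.039.

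Genes of the germ line did not stand apart. The 64 spermatid genes, which build the sperm head and tail, took 0.389, 0.419, 0.373 and 0.374% of the supernatant, against 0.313, 0.421, 0.334 and 0.337% of the pellet (mean log2 ratio 0.15 ± 0.13). Meiotic and early germ cell genes had 0.28 ± 0.35. Ribosomal proteins had 0.072 ± 0.32, mitochondrial ribosome and respiratory chain genes -0.034 ± 0.20, zinc finger proteins 0.21 ± 0.32, clustered protocadherins -0.089 ± 0.32, keratins 0.14 ± 0.18, defensins 0.29 ± 0.33, cytochrome P450 genes 0.18 ± 0.28 and taste and trace amine receptors 0.0088 ± 0.53 (mean log2 ratio ± SD over 4 doses). Marker genes of leukocytes had -0.20 ± 0.66 and of epididymal epithelium -0.30 ± 1.06, but promoter DNA is in every cell, and these shares say nothing of whether other cells were present.

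**Figure D5:**
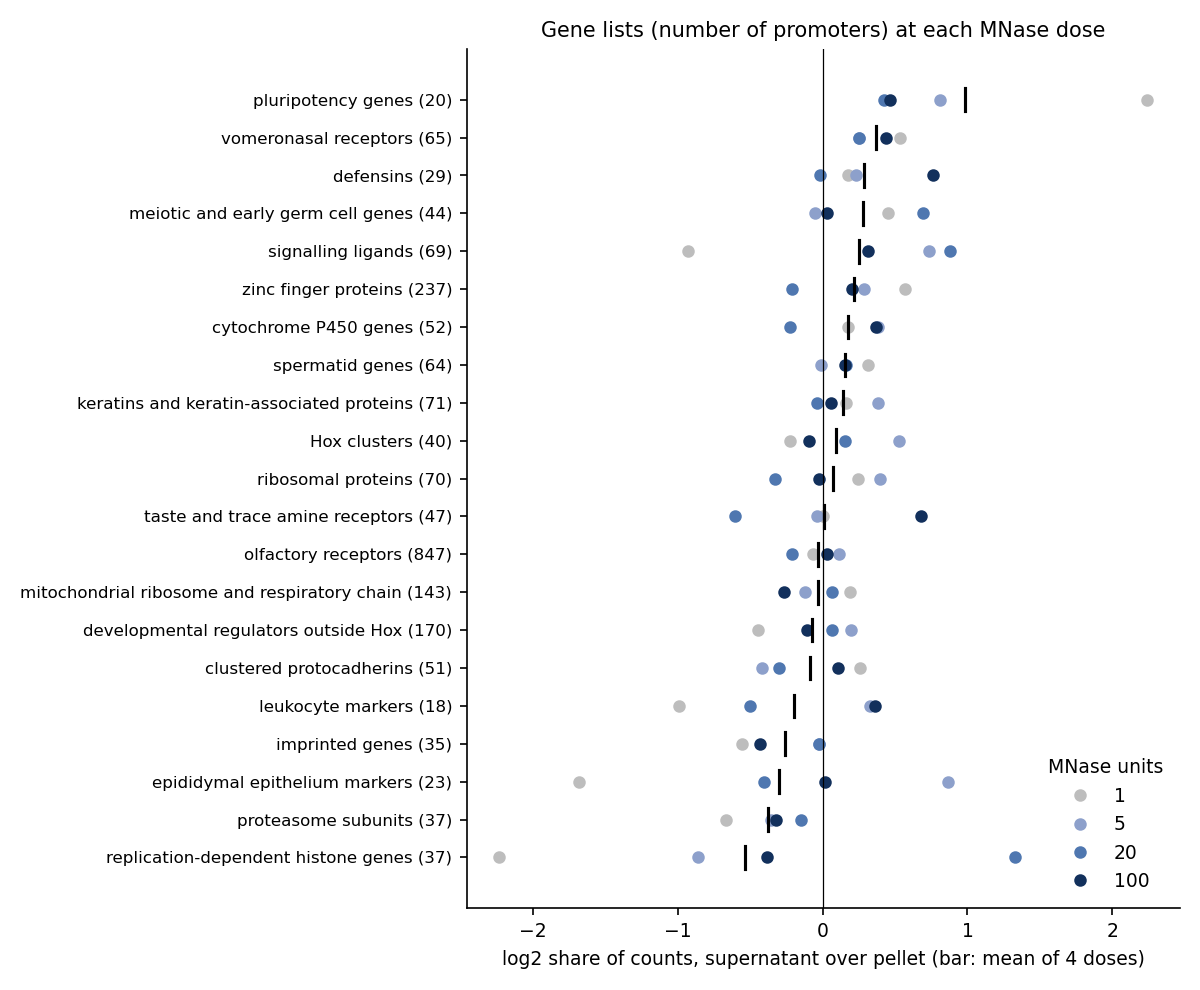
Log2 ratio of the share of counts within 1000 bp, supernatant over pellet, for 21 gene lists with their number of promoters. Points are the 4 doses, light to dark from 1 to 100 units, and bars their mean; list means run from -0.54 for replication-dependent histone genes to 0.98 for pluripotency genes, and most lists have doses on both sides of 0.

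At single promoters the depth was a median of 12 counts over all 8 libraries. The edgeR quasi-likelihood test with dose as a factor took in 505 promoters with at least 30 counts within 1000 bp, of which 7 had no pellet count and 0 no supernatant count. It called 0 of them (0%) at a Benjamini-Hochberg adjusted p below 0.05, and 8 (1.58%) had an unadjusted p below 0.05, all higher in the supernatant. Among these, Slfn2, Ccdc88b, Fxyd3, Cox11, Sc5d and Clstn1 had no pellet count. They passed the filter through the supernatant alone, which fixed their direction. With libraries scaled by their totals alone 5 were higher and 1 lower at that unadjusted level. DESeq2 also called 0, with 28 at an unadjusted p below 0.05, of which 24 were higher and 4 lower. The median log2 ratio of the 505 promoters was 0.82, and 0.33 under the scaling by totals, so a fitted ratio of a gene depends on the scaling. Of the lists, 11 olfactory receptors, 7 developmental regulators outside Hox, 6 keratins and keratin-associated proteins, 6 zinc finger proteins and 5 genes of the mitochondrial ribosome and respiratory chain were deep enough to be tested, and 0 of them had an unadjusted p below 0.05 in either direction (edgeR, against the 1.58% above). The promoters with the smallest p are given as counts, and none of them is a call.

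Sfi1, which encodes a centrosome protein, had the highest count of the 505 promoters in each of the 8 libraries, though in the 5-unit pellet library the next promoter came close (22 counts at Cnr2, named after its value was seen). It had 93, 76 and 90 counts in the supernatant at 1, 5 and 20 units, against 30, 24 and 60 in the pellet, and more in the supernatant also at 100 units, where the pellet had 83 (start site at chromosome 11, 3093466, mm9). The supernatant count was higher at each dose, as were the library totals. All promoters together had 26733 supernatant and 7026 pellet counts within 1000 bp at 1 unit, and 34583 and 20374 at 20 units. As a share of such totals, Sfi1 was lower in the supernatant at 1 and 20 units and higher at 5 and 100 units. The edgeR log2 ratio was 0.86, with an adjusted p of 0.99. The sources used here do not say how reads with several mapping places were treated.

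The CpG-poor Slfn2 promoter (chromosome 11, 82878613) had 9, 8, 6 and 7 counts in the supernatant at 1, 5, 20 and 100 units, against 0 in all 4 pellet libraries. Ccdc88b (chromosome 19, 6932701) had 5, 8, 4 and 16 in the supernatant and Fxyd3 (chromosome 7, 31861716), a regulator of the sodium pump, 4, 10, 11 and 5, both against 0 in all 4 pellet libraries. Cox11, an HCP promoter at chromosome 11, 90499497, had 4, 15, 4 and 7 counts in the supernatant and 0 in all 4 pellet libraries. A read pair adds 2 to 4 counts, so these values rest on few fragments per library. With no pellet count, all 4 reached the minimum of 30 counts through the supernatant alone, so their separation was fixed by the filter, and no fold is given against a fraction at 0.

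Pde4c, a cyclic AMP phosphodiesterase gene with an LCP promoter (chromosome 8, 73247962), had 8, 15, 9 and 16 counts in the supernatant, against 0, 0, 0 and 2 in the pellet. Hus1b, a paralogue of a DNA damage checkpoint gene, had 29 counts in the supernatant against 2 in the pellet over the 4 doses. Sc5d, a sterol desaturase gene, Clstn1, which encodes a calsyntenin, and Eif3m, a translation initiation factor subunit, had 34, 38 and 32 counts in the supernatant and 0 in the pellet. Each of these 3 had at least 1 supernatant library at 0, and Clstn1 owed 31 of its counts to the 100-unit library. With no pellet count, Sc5d, Clstn1 and Eif3m also passed the filter through the supernatant alone, so their separation was fixed by the filter. Pde4c and Hus1b passed it mostly through the supernatant, so the filter favoured their direction as well.

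Of the promoters with lower supernatant counts, Inpp1 had the smallest p. It had 0, 3, 0 and 0 counts in the supernatant at 1, 5, 20 and 100 units, against 2, 9, 6 and 12 in the pellet (start site at chromosome 1, 52874532), and the pellet was higher at each dose. Its HCP sequence is shown above beside that of Cox11, which went the other way. Kcns1, a potassium channel subunit gene, had 0, 2, 0 and 0 in the supernatant, against 0, 13, 3 and 14 in the pellet. Olfr159 (chromosome 4, 43783881) had 6, 0, 0 and 0 in the supernatant, against 2, 3, 12 and 10 in the pellet, so the 1-unit pair went against the other 3.

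Pias1, a SUMO ligase gene, had 5 counts in the supernatant and 30 in the pellet over the 4 doses. Fgd5, an exchange factor gene of endothelium, had 4 in the supernatant and 29 in the pellet, and Psmb8, an immunoproteasome subunit gene and the deepest proteasome promoter, 9 in the supernatant and 31 in the pellet. Crygn, Itgb5, Car11 and Plrg1 had 6, 8, 6 and 6 counts in the supernatant, against 24, 23, 24 and 27 in the pellet. The smallest unadjusted p on this side was 0.080, for Inpp1, with an adjusted p of 0.99 by edgeR's quasi-likelihood test.

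Genes of sperm packaging and reference genes had few counts. Prm1, a protamine gene, had 0, 0, 2 and 3 counts in the supernatant at 1, 5, 20 and 100 units, against 2, 6, 9 and 0 in the pellet. Tnp1, which encodes a transition protein, had 4, 2, 3 and 6 in the supernatant, against 0, 0, 0 and 3 in the pellet. Actb, the cytoplasmic actin gene, had 3, 2, 3 and 2 in the supernatant, against 0, 0, 0 and 3 in the pellet, and Pou5f1, a pluripotency factor gene, 2, 2, 0 and 7 in the supernatant, against 0 in all 4 pellet libraries. All 4 lie below the minimum of 30 counts and were not tested, and Prm2 was not analysed here.

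The deepest members of the lists went both ways. Summed over the 4 doses, counts were higher in the supernatant for the keratin gene Krt1 (32 against 8 in the pellet), the growth factor gene Fgf4 (28 against 6), the bitter taste receptor gene Tas2r134 (30 against 7), the linker histone gene H1f1 (23 against 5), Cyp3a11 (21 against 8), Spint4 (20 against 6) and Mpo (19 against 9). The vomeronasal receptor gene Vmn1r65 had 26 counts in the supernatant, all at 5 units, and 3 in the pellet. They were lower in the supernatant for the mitochondrial ribosome gene Mrpl53 (13 against 24), Defb36 (11 against 16), Hoxa9 (13 against 17), Sox2 (18 against 21) and the imprinted Rtl1 (20 against 22). Otx1 had 24 in the supernatant against 15 in the pellet, Stra8 24 against 16, Olfr802 22 against 17, Pcdhb1 13 against 12, Zfp689 20 against 20 and Actl7a 16 against 16. Since the supernatant held 134335 counts against 86920 in the pellet over these windows, 1.55 times as many, counts of equal size are a lower share of the supernatant.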

How the data were processed

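Sperm MNase libraries of 8 samples were used, grouped by fraction and units from their titles. For the pellet at 5 and 20 units the description states other units, which were tried as an alternative. The submitters' processing notes name Bowtie, SAMtools 0.1.16 and the build mm9. The authors deposited integer read counts in 200 bins per start site, unscaled, per the file headers and the values. The sources used here give no read filters, duplicate handling or class limits.

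The header labels step by 20 bp. Where windows of neighbouring start sites overlap, 89.7% to 92.4% of bins held the same value when read as 50 bp per bin and 1.96% to 7.01% at 20 bp, so 50 bp was used. Of 16493 start sites 11 repeats were left out, and 16278 of the rest had a symbol through a RefSeq table of GRCm38.p6. Counts were divided by the mean of an isolated stretch (at most 6 bins, 8 empty bins around it) before exact binomial and exact conditional intervals. Lengths are those of isolated stretches of 2 to 4 counts.

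Fractions were compared within doses by exact permutation over 16 sign patterns, and dose by the two-sided slope over 24 orderings. The log2 doses are symmetric about their mean, so an ordering and its reverse give slopes of equal size. The smallest p of the slope is therefore 0.083. Promoters were tested with edgeR 4.0.16 and DESeq2 1.42.0 in R 4.3.3, with dose as a factor. The scripts ran in Python 3.11.15 with numpy 2.4.6, pandas 2.3.3 and scipy 1.17.1. The promoter test was also run on simulated counts that held counting error alone. That run cannot show how the test performs on these libraries. P-values measure the spread over doses, never over animals or digests. The members, lists and measures were chosen with earlier results of these data known. Named promoters are those with the smallest p, up to 10 in each direction, the most counted member of each list, and Prm1, Prm2, Tnp1, Actb and Pou5f1. The named member of 1 list is not reported here. RefSeq windows were found for 78.9% of HCP, 76.4% of ICP and 79.8% of LCP promoters, so a check of CpG content over the classes is void. Alternatives were the window, the flanks, 20 bp bins, promoters left out, start sites spaced by 2000 bp, the description's units, the scaling and each dose left out. Capped bins and the X chromosome share were added after seeing the data.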

Additional observations from a re-analysis of the deposited data

How the results depend on the processing

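The log2 ratios of supernatant to pellet depended on the window. The HCP share had a mean of -0.13 within 200 bp, -0.11 within 500 bp and -0.013 over the whole span, the ICP share 0.22, 0.13 and 0.026, and the LCP share 0.27, 0.27 and 0.024. With the pellet units of the description (3 pairs) the HCP share had -0.084 and the HCP downstream start-site ratio -0.40, and counting promoters with a count gave an HCP share of -0.045. The HCP downstream ratio was -0.43 with flanks at 3000 to 5000 bp and -0.24 without the 165 most covered promoters, and the LCP upstream ratio was 0.15 with 20 bp bins. With bins capped at 1 count the class shares had means of -0.065, 0.094 and 0.16 (HCP, ICP, LCP). Leaving out each dose gave -0.066 to -0.055 for the HCP share, 0.12 to 0.19 for the LCP share, -0.45 to -0.32 upstream and -0.34 to -0.29 downstream of HCP start sites. The ICP start-site ratios ran from -0.18 to -0.053 upstream and from -0.22 to -0.059 downstream. Those of LCP ran from -0.086 to 0.016 upstream and from -0.13 to -0.012 downstream. Among the gene lists, signalling ligands ran from 0.041 to 0.64, histone genes from -1.16 to 0.027 and pluripotency genes from 0.57 to 1.17. Of 60 alternative values of the start-site ratios and 36 of the class shares, 0 changed the sign of a difference seen at 4 of 4 doses. Among the start-site ratios only those of HCP had 1 sign at 4 of 4 doses, so only their values could count. Leaving out a dose cannot flip the sign of such a mean, so that part of the 0 was fixed in advance. Of the 36 class values 11 moved by at least the SD over doses, as did 4 of the 60. Of 246 values of the gene lists 3 changed such a sign. These were -0.074 for vomeronasal receptors and 0.039 for imprinted genes over the whole span, and 0.10 for proteasome subunits without the most covered promoters. Only these lists and the pluripotency genes had 1 sign at 4 of 4 doses, so most of the 246 values could not count. A further 21 of the 246 moved by at least the SD over doses. The promoter test called 0 under all 10 alternatives, with 0 to 349 at an unadjusted p below 0.05. Without the replicate block, that is with dose left out of the model, edgeR called 0, with 13 at an unadjusted p below 0.05. No paired analysis was possible because each group holds 1 library, other than the pairing by dose. At 0.138 to 0.901 stretches per promoter, the depth limits what single promoters can show, and the cause of each shift was not tested.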

Other observations

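The X chromosome, carried by only part of the sperm, held a larger share of the supernatant than of the pellet at all 4 doses. Its 566 promoters, which are 3.43% of all promoters, took 1.99, 1.605, 1.58 and 1.49% of the supernatant counts over the whole span at 1, 5, 20 and 100 units, against 1.73, 1.46, 1.42 and 1.08% of the pellet counts. The log2 ratios were 0.20, 0.13, 0.16 and 0.47, a mean of 0.24 ± 0.15 (SD over 4 doses), and the interval lay above 0 at 100 units alone (0.31 to 0.63). Within each CpG class, X promoters took a larger part of that class's own counts in the supernatant at 100 units, with 1.22% of the HCP counts of the supernatant against 0.983% of those of the pellet, 2.397% against 1.64% of the ICP counts and 1.61% against 0.869% of the LCP counts. Within 1000 bp the X ratios were 0.18, 0.37, 0.42 and 0.15, and there the interval lay above 0 at 20 units (from 0.025) and held 0 at 100 units. Over the whole span the 19 autosomes had means from -0.054 to 0.066, and 3 of them had the same sign at all 4 doses. This chromosome was singled out after its values were seen, so no p is given, and the mean without 1 dose ran from 0.16 (without 100 units) to 0.27.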
